A study of Mus musculus with 10 samples.

Results

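The genes Dlx1, Dlx2, Dlx5 and Dlx6 were followed through 10 RNA libraries of mouse striatum. They are 4 of the 32531 gene symbols listed in each count table, and they were taken by name. Mice of the line Chat-TRAP DW167, named for the cholinergic gene Chat, carry a fusion of EGFP with the ribosomal protein Rpl10a, and immunopurification (IP) with antibodies against EGFP pulls down their tagged polysomes. The animals were from cocaine self-administration, yoked control or saline self-administration groups, with 3 IP libraries each, and 1 library of total RNA from saline animals (the input) was not purified. All groups share the transgenic line and whole striatum as tissue. Age, the number of animals behind a library and the yoked treatment are not stated in the labels, so intervals of fold changes measure only the spread between these libraries, which may be technical. Intervals of the level in 1 library are Poisson intervals and cover counting error only. The members were chosen with values of these data known: Dlx5 was among the genes with the smallest p in cocaine against saline. Levels by group, fold changes between groups and ratios to input are therefore given as descriptions. The fit across all genes is quoted for them only as sizes, intervals and whether a gene was called.

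Dlx genes encode homeodomain transcription factors that bind DNA at TAAT cores and drive the GABAergic programme of the ganglionic eminences, the embryonic source of striatal neurons and of forebrain interneurons. In mammals they lie in convergently transcribed pairs that share enhancers, Dlx1 with Dlx2 and Dlx5 with Dlx6. Dlx1 and Dlx2 act early in subpallial progenitors, Dlx5 and Dlx6 largely downstream of them in postmitotic cells, and expression persists in subsets of adult GABAergic interneurons. Striatal cholinergic interneurons also descend from the subpallium, largely the medial ganglionic eminence, through the factors Nkx2-1, Lhx8 and Isl1.

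Gene counts ranged from 24526765 to 75220922 per IP library and were 40912230 in the input. Levels are read counts scaled to the total gene counts of the library (CPM). Chat, the enzyme that makes acetylcholine, had a log2 ratio of IP to input of 5.94 ± 0.15 in cocaine, 5.82 ± 0.09 in yoked and 5.76 ± 0.18 in saline libraries (SD, n = 3 each), and 9 of 9 cholinergic markers lay above the input in all 3 saline libraries. Per the labels, cocaine and yoked libraries carry lane number 4, saline libraries 3 and the input 5, and an effect of lane cannot be told apart from a difference from saline or from the input. The 3 libraries numbered replicate 2 stood apart from the others of their groups, and the main values are also given without them. Lower RNA of a gene in a bulk library can mean fewer cells or less RNA per cell, which cannot be told apart. Ratios to input set RNA of purified polysomes against total RNA, for coding and noncoding genes alike. How far binding to ribosomes or carry-over of untagged RNA shaped these ratios was not tested.

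Dlx5, a factor of postmitotic GABAergic precursors, was the 1 member of the 4 that stood above the input in all 9 IP libraries. Its gene lies on chromosome 6, 6877801 to 6882068 (mm10). In the 3 saline libraries alone, 35.8% of genes measured were above the input, and a share over all 9 libraries was not computed. Cocaine libraries 1 to 3 held 59.3, 75.5 and 58.2 CPM, yoked libraries 43.7, 45.4 and 50.4 CPM, saline libraries 33.9, 33.03 and 46.8 CPM, and the input 25.8 CPM (95% Poisson interval 24.3 to 27.4). The order was cocaine, yoked, saline and input: all 3 cocaine libraries lay above all yoked and saline libraries, and saline library 3 lay within the yoked range. Group means were 64.3 ± 9.68, 46.5 ± 3.45 and 37.9 ± 7.75 CPM for cocaine, yoked and saline (SD, n = 3 each), and 58.7, 47.0 and 40.3 CPM without replicate 2.

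Dlx6 is the neighbour of Dlx5 (chromosome 6, 6863334 to 6867970) and acts with it in postmitotic precursors. Dlx6 measured 9.50, 8.60 and 7.46 CPM in cocaine libraries, 6.42, 9.75 and 6.92 in yoked, 6.87, 5.44 and 7.81 in saline and 10.9 CPM in the input (interval 9.87 to 11.9). All 9 IP libraries lay below the input value, as 44.9% of genes measured did in the 3 saline libraries. The treatment groups overlapped. Their means in the order cocaine, yoked and saline were 8.52 ± 1.02, 7.69 ± 1.79 and 6.71 ± 1.20 CPM, and without replicate 2 they were 8.48, 6.67 and 7.34 CPM, with saline above yoked.

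Dlx1, which is kept in subsets of adult interneurons, lies on chromosome 2, 71528113 to 71533981, and had its highest level in the unpurified RNA. It measured 1.88, 5.32 and 1.66 CPM in cocaine libraries, 3.49, 0.560 and 1.24 in yoked, 3.59, 1.85 and 2.23 in saline and 12.4 CPM in the input (interval 11.3 to 13.5). Cocaine library 2, with 400 counts, stood above every other IP library, and yoked library 2, with 17 counts, below every other. The groups overlapped.

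Dlx2 (chromosome 2, 71543408 to 71546754) was also higher in the input. Cocaine libraries held 2.98, 0.572 and 1.25 CPM, yoked 3.11, 0.626 and 1.60, saline 3.08, 2.45 and 1.57, and the input 4.47 CPM (interval 3.85 to 5.17). The replicate 1 libraries of the 3 groups were within 2.98 to 3.11 CPM, and the lowest values were those of cocaine and yoked library 2. The groups overlapped here too.

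**Figure D1:**
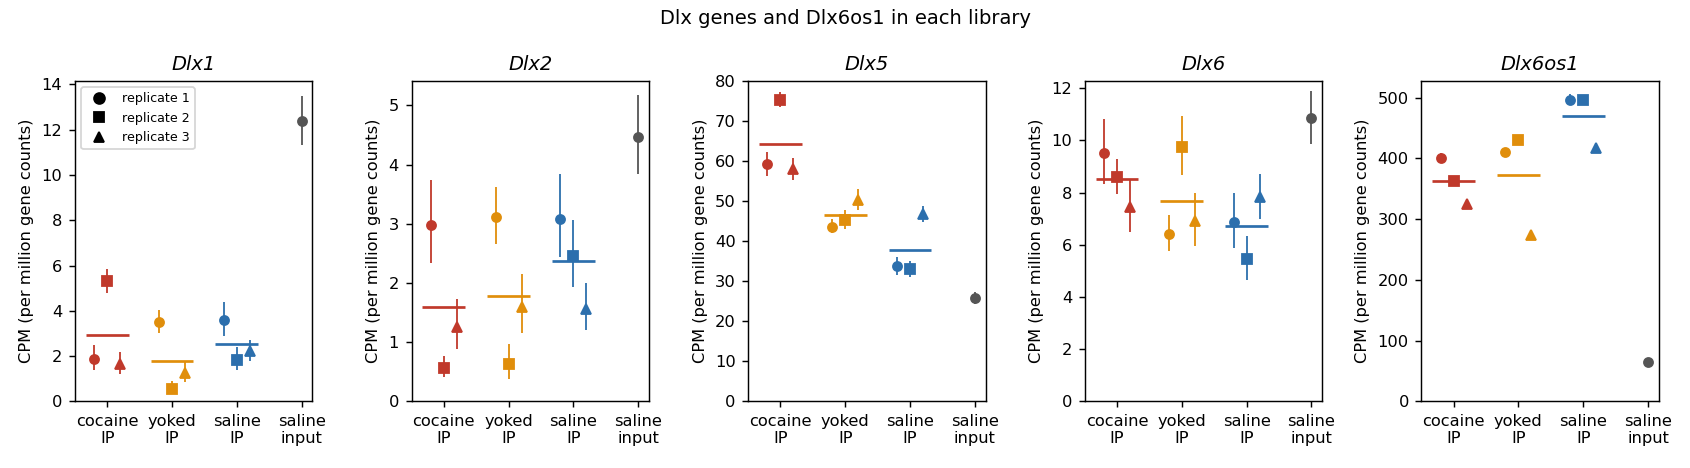
CPM of the 4 Dlx genes and of Dlx6os1 (linear axes from 0) in cocaine, yoked and saline IP libraries and in the saline input. Points are libraries, with the symbol giving the replicate number, vertical bars are exact 95% Poisson intervals and horizontal lines group means. Dlx5 lies above the input in all groups, with cocaine libraries at 58.2 to 75.5 CPM, while Dlx1 is at 12.4 CPM in the input and at most 5.32 CPM after purification.

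Noncoding RNAs of the same loci were read beside the members. Dlx6os1, also called Evf2, is a long noncoding RNA that in mouse is transcribed from the Dlx5 and Dlx6 locus and is known to act with Dlx proteins at shared enhancers. It measured 401, 363 and 325 CPM in cocaine libraries, 411, 431 and 273 in yoked, 496, 495 and 417 in saline and 65.6 CPM in the input. All IP libraries were above the input, and all 3 cocaine libraries were below all 3 saline libraries, which held for 5.4% of the 14989 genes tested. Dlx1as, the antisense RNA of Dlx1, had 28, 25 and 23 counts in cocaine, 35, 6 and 6 in yoked and 12, 9 and 5 in saline libraries, against 183 in the input. Dlx6os2 had between 0 and 24 counts in any library, Dlx3 at most 3 and Dlx4 at most 7, of which 7 were in the input. The Dlx6 span lies wholly inside that of Dlx6os1 (chromosome 6, 6820543 to 6871627) and 3344 bases of Dlx1 overlap Dlx1as (chromosome 2, 71530638 to 71537891), whereas Dlx5 is 6173 bases from Dlx6os1 and Dlx2 is 5516 bases from Dlx1as. The strand setting of the counting is not given in the sources used here, so reads of Dlx6 and Dlx6os1, and of Dlx1 and Dlx1as, may not be told apart.

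Promoters are shown for the genes of these loci that had a window in the promoter reference. These were Dlx1 and Dlx2, which lay below the input, and Dlx6os1, which lay above it. No window was found for Dlx5, Dlx6 or Dlx1as. Each window holds 250 bases before and 50 after a RefSeq start (GRCm38.p6, the assembly of mm10), 5′ to 3′ on the gene's strand, with the palindromic homeodomain core TAATTA in capitals, which reads the same on both strands. They are chr2:71529195-71529494 (plus strand), chr2:71546705-71547004 (minus strand) and chr6:6869484-6869783 (minus strand).
Dlx1: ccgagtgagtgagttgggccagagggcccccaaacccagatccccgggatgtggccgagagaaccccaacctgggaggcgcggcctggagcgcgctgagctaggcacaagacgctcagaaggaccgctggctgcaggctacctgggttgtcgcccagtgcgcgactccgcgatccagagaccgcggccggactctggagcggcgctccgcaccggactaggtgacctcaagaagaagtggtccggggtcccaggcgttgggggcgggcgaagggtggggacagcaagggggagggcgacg
Dlx2: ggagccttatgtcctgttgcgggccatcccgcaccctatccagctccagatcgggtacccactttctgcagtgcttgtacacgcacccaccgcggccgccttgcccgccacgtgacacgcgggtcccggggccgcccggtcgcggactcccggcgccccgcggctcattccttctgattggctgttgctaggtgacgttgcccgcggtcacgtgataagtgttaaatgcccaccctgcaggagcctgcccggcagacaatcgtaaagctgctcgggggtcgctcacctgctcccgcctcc
Dlx6os1: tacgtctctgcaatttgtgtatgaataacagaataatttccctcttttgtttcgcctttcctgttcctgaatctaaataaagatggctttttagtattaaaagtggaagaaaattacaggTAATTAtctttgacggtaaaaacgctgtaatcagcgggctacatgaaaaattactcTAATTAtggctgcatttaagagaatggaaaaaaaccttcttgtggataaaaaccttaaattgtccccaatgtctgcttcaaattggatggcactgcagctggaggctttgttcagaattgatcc
The Dlx6os1 window holds 2 copies of TAATTA, and a second RefSeq start of the gene (chr6:6861634-6861933, not printed) holds 1. The windows of Dlx1 and Dlx2 hold 0. Of 32851 promoter windows of the same length, 5.29% hold at least 1 copy and 0.49% hold 2 or more. Such a match describes these letters only.

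Against the input, Dlx5 and Dlx6os1 were higher after purification and Dlx6, Dlx2, Dlx1 and Dlx1as lower. The log2 ratio of CPM in IP to input was 1.31 ± 0.21 for Dlx5 in cocaine, 0.85 ± 0.11 in yoked and 0.54 ± 0.28 in saline libraries (SD, n = 3 each), that is 2.48, 1.80 and 1.45-fold higher. Of 15888 genes measured, 35.8% were above the input in all 3 saline libraries, as Dlx5 was, and 44.9% were below it in all 3, as Dlx1, Dlx2 and Dlx6 were. For Dlx6 the log2 ratio was −0.36 ± 0.18, −0.52 ± 0.32 and −0.71 ± 0.26 in cocaine, yoked and saline.

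Of the 4 members the ratio was lowest for Dlx1, at −2.28 ± 0.92 in cocaine, −3.20 ± 1.32 in yoked and −2.33 ± 0.49 in saline libraries, or 4.85, 9.21 and 5.04-fold lower than the input. For Dlx2 it was −1.80 ± 1.19, −1.61 ± 1.16 and −0.97 ± 0.50. Dlx6os1 had log2 ratios of 2.46 ± 0.15, 2.47 ± 0.36 and 2.84 ± 0.14 and Dlx1as of −2.75 ± 0.91, −3.89 ± 0.94 and −4.15 ± 1.003 in cocaine, yoked and saline. In all 3 saline libraries Dlx6os1 was at least 4-fold above the input, as 3.62% of genes were, and Dlx1as at least 4-fold below it, as 12.9% were. The median log2 ratio of all measured genes was −0.032. Without replicate 2, the cocaine, yoked and saline ratios were 1.19, 0.86 and 0.63 for Dlx5, −0.37, −0.70 and −0.57 for Dlx6, −2.81, −2.57 and −2.13 for Dlx1 and −1.21, −1.003 and −1.02 for Dlx2. The input has no replicate, so these ratios carry the spread of the IP libraries alone.

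**Figure D2:**
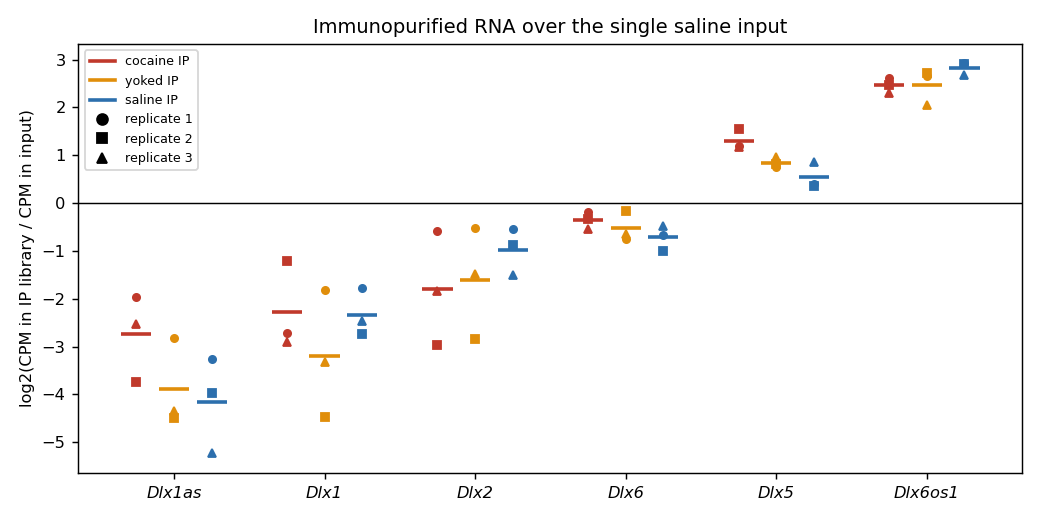
Log2 ratio of CPM in each IP library to the single saline input, by gene and group (colour), with replicate numbers as symbols and group means as bars. Dlx6os1 and Dlx5 lie above 0 in all 9 libraries, and Dlx6, Dlx2, Dlx1 and Dlx1as lie below 0 in all 9. For all genes such shares were computed in the saline libraries only.

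Counts of neighbours were also compared within a library, where depth and scaling cancel; these ratios depend on gene length and are read across libraries only, and they were formed after the levels were seen. There were 6.24, 8.77 and 7.80 Dlx5 counts per Dlx6 count in cocaine libraries, 6.81, 4.66 and 7.28 in yoked, 4.93, 6.07 and 5.99 in saline and 2.38 in the input. All 3 cocaine values were above all 3 saline values, with 6.24 the lowest in cocaine and 6.07 the highest in saline, and the yoked values overlapped both. Dlx5 was chosen from this contrast and its levels were already separated in it, while those of Dlx6 overlapped. How often such ratios separate for other gene pairs was not computed. The ratio of Dlx6os1 to Dlx5 counts was 6.76, 4.82 and 5.58 in cocaine, 9.40, 9.48 and 5.43 in yoked, 14.7, 14.997 and 8.91 in saline and 2.54 in the input. Cocaine lay wholly below saline, which follows from the levels, since Dlx5 was higher and Dlx6os1 lower in all 3 cocaine libraries, and it adds nothing to them. Yoked library 3 lay within the cocaine range.

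For Dlx6os1 over Dlx6 the cocaine values were close together, at 42.2, 42.3 and 43.5, against 64.0, 44.2 and 39.5 in yoked, 72.2, 91.0 and 53.4 in saline and 6.04 in the input. Dlx1 counts per Dlx2 count were 0.630, 9.30 and 1.32 in cocaine libraries, 1.12, 0.895 and 0.773 in yoked, 1.16, 0.753 and 1.42 in saline and 2.77 in the input. Cocaine library 2, with high Dlx1 and low Dlx2, was the 1 IP library above the input in this ratio.

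**Figure D3:**
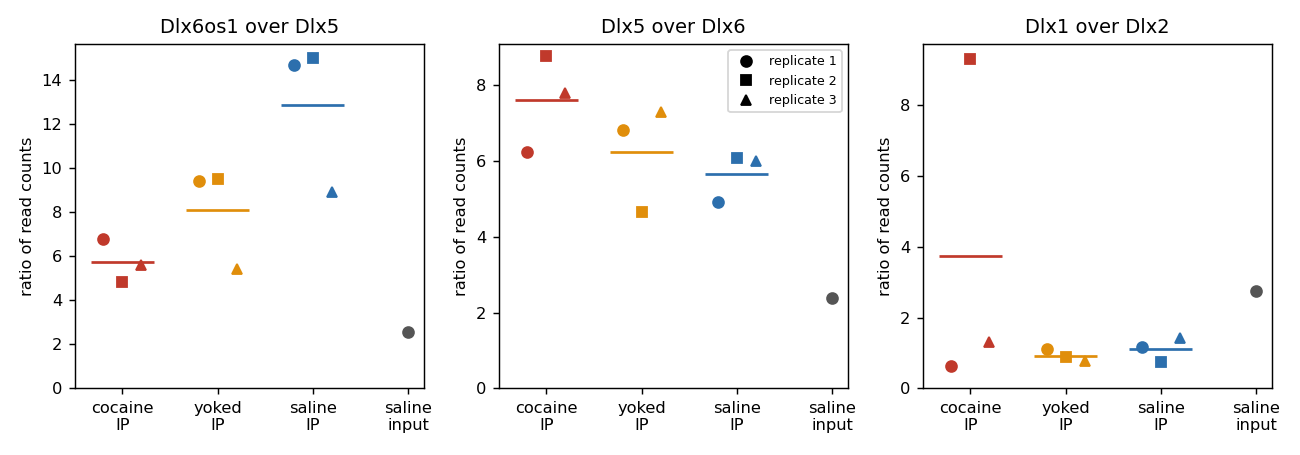
Ratios of read counts within each library for Dlx6os1 over Dlx5, Dlx5 over Dlx6 and Dlx1 over Dlx2 (linear axes from 0), by group, with group means as lines. Dlx1 over Dlx2 is 9.30 in cocaine library 2 and at most 1.42 in the other IP libraries.

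The first comparison set animals that took cocaine against those that took saline. Dlx5 had the largest shift of the 4 for its error, 1.72-fold higher after cocaine (log2 fold change 0.78 ± 0.20, SE; 95% interval 0.34 to 1.22), and this contrast is the one it was chosen from. All 3 cocaine libraries lay above all 3 saline libraries for Dlx5, as they did for 4.88% of genes tested. The log2 fold change was 0.36 ± 0.31 for Dlx6 (−0.30 to 1.02), 0.26 ± 0.72 for Dlx1 (−1.28 to 1.80) and −0.57 ± 0.76 for Dlx2 (−2.18 to 1.05).

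All 4 members passed the filter on low counts, and 0 of the 4 passed edgeR's quasi-likelihood test at a Benjamini-Hochberg adjusted p under 0.05 over all genes. The background was the same, since 0% of 14989 genes were called in cocaine against saline, 0% in cocaine against yoked and 0% in yoked against saline. At an unadjusted p under 0.05 there were 791, 391 and 327 genes in these comparisons, and DESeq2 and limma voom on the same filter also called 0 in each. With every replicate 2 library left out, cocaine minus saline gave a log2 fold change of 0.52 for Dlx5, 0.19 for Dlx6, −0.72 for Dlx1 and −0.14 for Dlx2. Dlx1 thus changed sign, and leaving out cocaine library 2 alone gave −0.53.

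Cocaine against yoked controls compared libraries of the same lane number. Dlx5 was 1.42-fold higher after cocaine than in yoked animals (log2 fold change 0.51 ± 0.20, SE; interval 0.073 to 0.94), and its cocaine libraries lay above all 3 yoked libraries, as for 3.42% of genes. The values were 0.19 ± 0.31 for Dlx6, 0.77 ± 0.72 for Dlx1 and −0.17 ± 0.75 for Dlx2. Without replicate 2 they were 0.29 for Dlx5, 0.32 for Dlx6, −0.46 for Dlx1 and −0.20 for Dlx2. Yoked against saline gave 0.27 ± 0.20 for Dlx5 (interval −0.16 to 0.71), 0.17 ± 0.31 for Dlx6, −0.51 ± 0.72 for Dlx1 and −0.39 ± 0.75 for Dlx2, with overlapping libraries in all 4. Without replicate 2 these were 0.23, −0.13, −0.26 and 0.055. These comparisons share the cocaine, yoked or saline libraries with the first and are not independent of it.

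For Dlx6os1 the log2 fold change for cocaine minus saline was −0.35 ± 0.18 (SE; interval −0.74 to 0.032) and was not called. The same quantity was −0.36 ± 0.18 for yoked minus saline and 0.0051 ± 0.18 for cocaine minus yoked. Without replicate 2 these 3 values were −0.34, −0.40 and 0.058. Dlx5 and Dlx6os1 had opposite signs against saline in both treatment groups, but both comparisons use the same saline libraries and are not independent. The intervals of Dlx6os1 against saline, and that of Dlx5 for yoked minus saline, included 0.

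**Figure D4:**
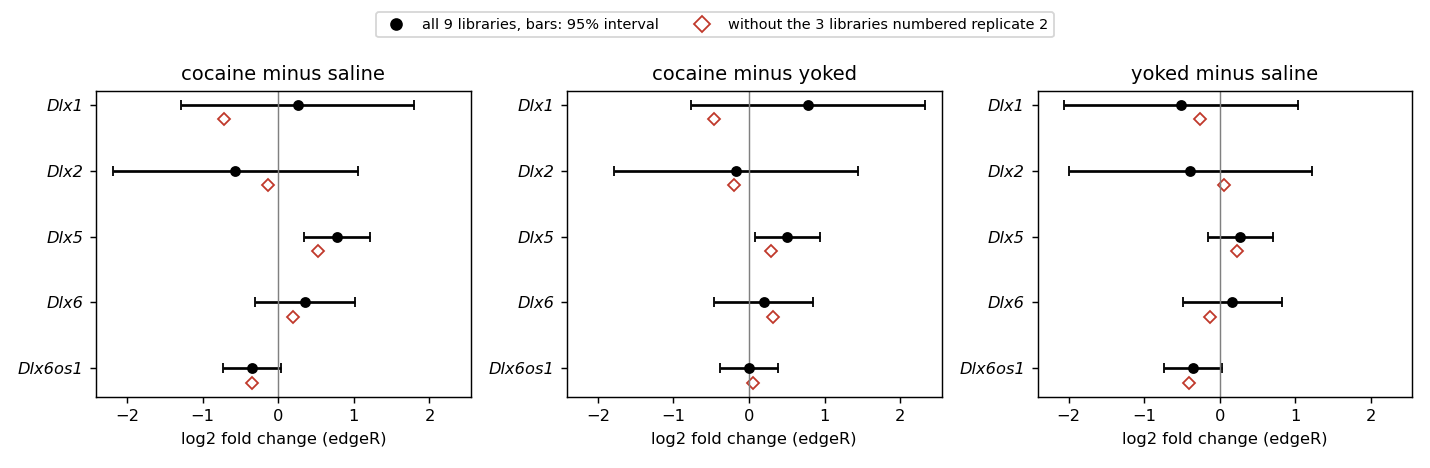
Fitted log2 fold changes (edgeR) of the 4 members and Dlx6os1 for cocaine minus saline, cocaine minus yoked and yoked minus saline, with 95% intervals (black) and the value without the 3 libraries numbered replicate 2 (open diamonds). Dlx5 is at 0.78, 0.51 and 0.27, and the intervals of Dlx1 and Dlx2 span 0 in each panel.

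Summed marker levels of other cells were read beside Dlx5. The 13 listed markers of spiny projection neurons summed to 2463 to 3202 CPM in cocaine, 1986.5 to 2488.5 in yoked and 1839 to 2599 in saline libraries, against 8063 CPM in the input, with none at 0. Drd2, a dopamine receptor that cholinergic neurons also carry, made up 915 to 1129 CPM of the saline sums. The 12 markers of other striatal interneurons summed to 155 to 249 CPM in cocaine, 140 to 187 in yoked, 124 to 204 in saline libraries and 254 CPM in the input, and Calb2, Htr3a and Chrna2 were at 0 in at least 1 IP library. Lhx6 alone made up 114 to 200 CPM of the cocaine, 98.2 to 151 CPM of the yoked and 96.0 to 175 CPM of the saline sums, and it also stands among the cholinergic lineage factors, while 9 of the 11 markers measured lay below the input. The 8 markers of subventricular zone neuroblasts, migrating young neurons that express Dlx genes, summed to 198 to 356, 291 to 382 and 252 to 311 CPM in cocaine, yoked and saline and to 241 CPM in the input, with Prokr2 and Igfbpl1 at 0 in some IP libraries. Tubb3, a tubulin of neurons in general, made up 172 to 246 CPM of the saline sums, and 6 of the 8 markers lay below the input in all 3 saline libraries, among them Dcx (log2 ratio −1.15 ± 0.13) and Sox11 (−2.10 ± 0.21). The highest spiny and interneuron sums were those of cocaine library 2, which also had the highest Dlx5 and Dlx1, while its neuroblast sum was the lowest. Lhx6 made up 200 of the 249 CPM of that interneuron sum, and Chat was also highest in this library, at 698 CPM.

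Markers of other cells were also read by treatment, with 0 called in any list. Oligodendrocyte markers were higher in 6 of 6 for cocaine minus saline (median log2 fold change 0.42) and 6 of 6 for yoked minus saline (0.50), as Dlx5 was. Medians over all genes were 0.0049 and −0.014. The marker sums were 284 to 512 CPM in cocaine, 294 to 452 in yoked, 214 to 466 in saline libraries and 2630 CPM in the input. By library their order differed from that of Dlx5. The sum was 512 CPM in cocaine library 1 (Dlx5 59.3 CPM), 466 in saline library 1 (33.9) and 284 in cocaine library 2 (75.5). Spiny neuron markers were higher in 10 of 13 for cocaine minus saline (median 0.07) and 12 of 13 for yoked minus saline (0.18), and other interneuron markers in 8 of 11 (0.33) and 7 of 11 (0.76). For cocaine minus yoked, where Dlx5 was also higher, the medians were 0.09 for oligodendrocyte markers, −0.058 for spiny and −0.34 for other interneuron markers.

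Cortical neuron markers had medians of 0.52 for cocaine minus saline and 0.93 for cocaine minus yoked (5 of 5 higher), and summed to 17.5 to 36.5 CPM in cocaine, 7.28 to 28.2 in yoked, 15.2 to 29.1 in saline libraries and 403 CPM in the input. Astrocyte markers had medians of 0.17 and −0.25, neuroblast markers of 0.11 and 0.07 and microglia markers of −0.068 and −0.21 in these 2 comparisons. Summed levels were 280 to 410 CPM in cocaine, 316 to 338 in yoked and 232 to 389 in saline libraries against 2281 CPM in the input for astrocytes, and at most 8.63 CPM in any IP library against 43.6 CPM for microglia. No oligodendrocyte or astrocyte marker was at 0 in any library. The part of these cells in the Dlx values was not tested.

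The median log2 ratio of saline IP to input was 5.76 for cholinergic markers, 2.49 for cholinergic lineage factors, −1.15 for neuroblast markers, −3.03 for other interneuron markers and −3.004 for spiny neuron markers. Dlx5, at 0.54, was above the last 3 medians and below every cholinergic marker, of which the lowest, Ngfr, a neurotrophin receptor, was at 4.16 ± 1.42. Among other interneuron markers, Lhx6, a factor of interneurons from the medial eminence, was at 2.08 ± 0.44 and Th at 0.93 ± 0.35, while Npy (−5.53 ± 2.41), Pvalb (−4.58 ± 1.53) and Kit (−4.49 ± 1.11) were the lowest.

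**Figure D5:**
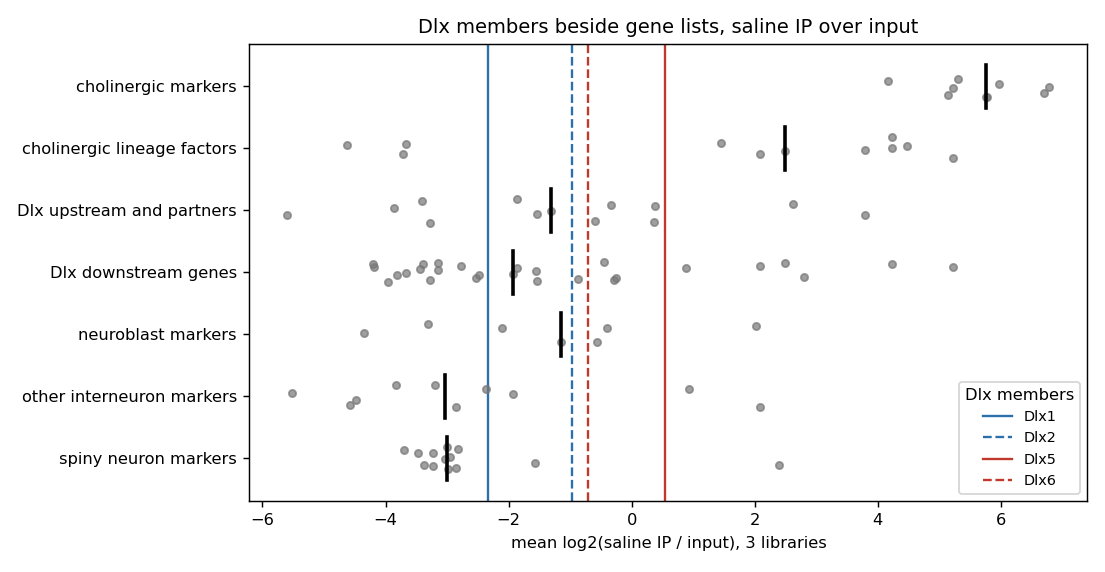
Mean log2 ratio of saline IP to input over 3 libraries for the genes of 7 lists (grey points; black bars are list medians), with vertical lines for Dlx1, Dlx2, Dlx5 and Dlx6. Vertical scatter within a list has no meaning. The line of Dlx5 lies at 0.54, left of all cholinergic markers, and that of Dlx1 at −2.33.

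Genes known to act before or with Dlx in the ganglionic eminences were mostly lower than in the input, with 4 of 14 measured above it and 10 below it in all 3 saline libraries, beside 35.8% and 44.9% of all genes. Nkx2-1, the factor of medial eminence identity, measured 85.1, 88.4 and 96.5 CPM in saline libraries against 6.48 CPM in the input (log2 ratio 3.79 ± 0.09), and Pbx3, a homeodomain partner factor, had a ratio of 2.61 ± 0.15. Smarca4, the chromatin remodelling ATPase Brg1 that binds Evf2 in mouse, was near the input (0.38 ± 0.31). Meis2, a homeodomain factor of spiny neuron precursors, measured 78.1, 37.9 and 44.3 CPM against 735 CPM (−3.86 ± 0.55). Meis1 (−3.41 ± 0.14) and Olig2 (−5.59 ± 3.45), a factor of oligodendrocyte lineage, were low as well.

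Genes placed downstream of Dlx in forebrain development were also mostly lower: 6 of 30 were above the input in all 3 saline libraries and 24 below, against the same 35.8% and 44.9% of all genes. Those above include Lhx8 (log2 ratio 5.23 ± 0.13) and Isl1 (2.49 ± 0.31), which specify cholinergic neurons. Among the lowest were Zeb2 (−4.21 ± 0.57) and Ebf1 (−3.96 ± 1.35), a factor of D1 spiny neurons. Of the cholinergic lineage factors 8 of 11 were above the input, led after Lhx8 by Zic1 (4.48 ± 0.17) and Zic4 (4.23 ± 0.10). Sox6 (−4.62 ± 1.13), Nr2f2 (−3.71 ± 2.15) and Etv1 (−3.66 ± 0.82) were below it.

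Between treatments none of these lists held a called gene, in a background of 0% called. For cocaine minus saline 20 of 29 downstream genes were higher and 9 lower, with a median log2 fold change of 0.08 beside 0.0049 for all genes, and 9 of 12 upstream and partner genes were higher (median 0.18). For cocaine minus yoked the counts were 12 higher and 17 lower (median −0.019) and 9 higher and 3 lower (0.20), and for yoked minus saline 19 higher and 10 lower (0.12) and 6 each way (0.0093). Cholinergic lineage factors had medians of 0.09, −0.046 and 0.05 in these 3 comparisons. Without replicate 2 the upstream medians for cocaine were 0.09 against saline and 0.0063 against yoked, and the downstream median against saline was −0.00058.

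The genes with the smallest p of each list did not pass (edgeR, adjusted p at least 0.850 for each with Benjamini-Hochberg). Slc32a1, the vesicular GABA transporter, measured 11.7, 10.2 and 14.6 CPM in cocaine libraries and 13.9, 13.1 and 11.9 in yoked, against 7.34, 4.65 and 7.13 in saline. Cocaine and yoked libraries both lay wholly above saline, the second as 4.3% of genes did, with log2 fold changes of 0.94 ± 0.28 for cocaine minus saline and 1.01 ± 0.29 for yoked minus saline (SE). The log2 ratio of saline IP to input for Slc32a1 was −3.44, below the median of −3.004 for spiny neuron markers. The part of RNA from other cells in its levels was not tested. Sox6 (1.02 ± 0.57), Grip1 (0.42 ± 0.24), an adaptor reported to bind Dlx proteins, and Lhx6 (0.33 ± 0.26) had positive values against saline and Meis1 a negative one (−0.97 ± 0.66). Without replicate 2 these were 0.70 for Sox6, 0.34 for Grip1, 0.019 for Lhx6 and −0.53 for Meis1. Lhx6 was 0.098 without cocaine library 2 alone and 0.60 without saline library 1, Sox6 was 0.61 without saline library 2, and Meis1 was −0.55 without cocaine library 2 and −1.93 without cocaine library 3.

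Against yoked controls Meis1 was at 0.571, 0.319 and 1.76 CPM in cocaine libraries and 4.37, 3.66 and 3.06 CPM in yoked libraries (log2 fold change −2.06 ± 0.67). Nrp2, a semaphorin receptor that Dlx factors repress in mouse, was at 2.20, 1.77 and 1.83 CPM in cocaine and 4.66, 3.56 and 5.71 CPM in yoked libraries (−1.24 ± 0.49), and both lay wholly below yoked, as 3.37% of genes did. Nkx2-1 (0.47 ± 0.20) and Lhx6 (0.38 ± 0.26) were highest in cocaine library 2, at 135 and 200 CPM, and their values without replicate 2 were 0.15 and −0.030. For yoked minus saline the others named by the same rule were Meis1 (1.09 ± 0.65), Nkx2-1 (−0.27 ± 0.20; all 3 yoked libraries below saline, as for 2.74% of genes), Tshz1 (0.54 ± 0.32), Sox6 (1.06 ± 0.57) and Zic2 (0.58 ± 0.42). Without replicate 2 these were 1.16, −0.26, 0.69, 0.79 and −0.13.

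The genes whose levels ran most like each member were taken as the 5 highest Pearson correlations of log2 CPM over the 9 IP libraries, among 10243 genes of at least 5 CPM, so high values come with the choice. For Dlx5 they were Evl, an actin regulator (r = 0.96), Rad9a, a DNA damage clamp subunit (0.96), Brwd3 (0.95), Cs, citrate synthase (0.95), and Vwa5b2 (0.94). For Dlx6 they were Nr4a2, an orphan nuclear receptor (0.94), Zfp39 (0.94), Eif2ak1, a kinase of translation factor eIF2 (0.92), Med11, a Mediator subunit (0.92), and Ell2, an elongation factor (0.91). For Dlx2 they were Klhl11 (0.99), Mta2, a subunit of the NuRD complex (0.98), Rundc3b (0.96), B230354K17Rik (0.96) and Cbx3, a heterochromatin protein (0.95). For Dlx1 they were Zfp90 (0.95), 4632404H12Rik (0.93), Zfp580 (0.93), 1110059G10Rik (0.93) and Pnisr (0.93).

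Dlx5 and Dlx6 were not among the 5 listed partners of any other member. Dlx1 and Dlx2 had group means below 5 CPM, so they could not be listed as partners. Over the same 9 libraries r was 0.68 between Dlx5 and Dlx6, 0.28 between Dlx1 and Dlx2, and −0.57 between Dlx5 and Dlx6os1, and over the 6 libraries other than replicate 2 it was 0.62, 0.71 and −0.62. Libraries of a group share treatment and lane, so these correlations describe 9 libraries in 3 groups and carry no p.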

How the data were processed

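Per the file headers and values, the authors deposited 1 table of raw read counts per gene symbol for each library, with no normalisation. The submitters' processing notes list STAR 2.0.0e, HTSeq and build mm10, and the annotation and strand setting are not given in the sources used here. Summary lines and a symbol named unknown (at most 1 count per library) were left out, which kept 32531 symbols. Unassigned reads, as a share of all records, were 36.3% to 57.1% not uniquely aligned, 7.04% to 11.2% without a feature and 0.976% to 1.84% ambiguous in IP libraries, and 35.4%, 15.2% and 4.49% in the input. RefSeq tables of GRCm38.p6 gave coordinates and promoters.

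CPM are counts scaled to total gene counts. The groups were compared in 1 fit of the 9 IP libraries with edgeR 4.0.16 in R 4.3.3 (TMM scaling, robust quasi-likelihood, filter with minimum count 10 and minimum total 15), which was tested on simulated data, with DESeq2 1.42.0 and limma 3.58.1 as alternatives. Ratios to the input took genes with at least 20 counts in the input or the mean saline IP library. Poisson intervals are exact, at the 95% level, and cover counting error only, since reads carry no molecular identifiers. No pair of libraries in a group agreed within sampling noise. The members, gene lists and tests were chosen with earlier results of these data known. List genes named are the 2 with the smallest p per comparison or the 3 highest and 3 lowest ratios to input with at least 100 counts. Some genes that this rule names are not reported here.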

Additional observations from a re-analysis of the deposited data

How the results depend on the processing

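The counts of called genes were 0 in every comparison under DESeq2, RLE scaling, limma voom, the replicate block, without the 3 libraries numbered replicate 2 and without any 1 library (lowest and highest 0), but edgeR with no filter on low counts called 60 genes for cocaine minus saline, 27 for cocaine minus yoked and 18 for yoked minus saline, none of them a Dlx member. The smallest adjusted p of DESeq2 for yoked minus saline was 0.0502 (Benjamini-Hochberg), close to the threshold of 0.05. Replicate numbers were taken to pair libraries only if every same-numbered pair had a correlation of deviations over 0.1. The 9 such pairs had 0.0486 to 0.287, against −0.195 to 0.0874 for the 18 pairs of different number; the yoked and saline pairs all passed (0.178 to 0.287), pairs with cocaine libraries did not all pass, and 7 of 9 libraries correlated best with their own number. With the replicate block the count of calls was 0 in each comparison. Over 15 alternatives Dlx5 kept its sign in each comparison (log2 fold change 0.52 to 0.98 for cocaine minus saline, 0.29 to 0.60 for cocaine minus yoked and 0.17 to 0.48 for yoked minus saline). For the cocaine comparisons this adds nothing, since its cocaine libraries lay above all others and leaving libraries out could not reverse the sign. The 15 also include leaving out libraries of the group outside a comparison, which bears little on it. Dlx6 kept its sign in both cocaine comparisons, and in yoked minus saline was −0.071 with limma voom and −0.13 without the 3 replicate 2 libraries. Dlx1 became −0.39 with limma voom, −0.53 without cocaine replicate 2 and −0.72 without the 3 for cocaine minus saline, and −0.038, −0.022 and −0.46 for cocaine minus yoked. Dlx2 was 0.23 without cocaine replicate 2 and 0.53 without yoked replicate 1 for cocaine minus yoked, and 0.017 with limma voom, 0.055 without the 3 and 0.035 without yoked replicate 2 for yoked minus saline. Dlx1as, for yoked minus saline, was −0.068 without saline replicate 3 and −0.49 without yoked replicate 1. Dlx6os1, for cocaine minus yoked, was −0.061, −0.018 and −0.17 without cocaine replicate 1, cocaine replicate 2 or yoked replicate 3. Without the 3, Lhx6 was −0.030 for cocaine minus yoked and Zic2 −0.13 for yoked minus saline, where Zic2 was −0.029 without yoked replicate 2. The causes were not tested. TMM scaling moved every log2 ratio to input by 0.092 and DESeq2 size factors by −0.0022, and without 1 saline library the ratios ranged from −2.61 to −2.13 for Dlx1, −1.19 to −0.70 for Dlx2, 0.37 to 0.63 for Dlx5 and −0.83 to −0.57 for Dlx6. With other IP groups in place of saline they moved beyond 1 SD to −3.20 for Dlx1 (yoked), −1.80 and −1.61 for Dlx2 (cocaine and yoked), 1.31 and 0.85 for Dlx5 (cocaine and yoked) and −0.36 for Dlx6 (cocaine). Without 1 library at a time the log2 fold change ranged from −0.53 to 0.57 for Dlx1 in cocaine minus saline and from −0.022 to 1.79 in cocaine minus yoked, from −0.98 to 0.53 for Dlx2 in cocaine minus yoked and from −1.10 to 0.035 in yoked minus saline, from 0.014 to 0.31 for Dlx6 and −0.49 to 0.81 for Dlx1as in yoked minus saline, from −0.17 to 0.11 for Dlx6os1 and 0.15 to 0.59 for Lhx6 in cocaine minus yoked, and from −0.029 to 0.90 for Zic2 in yoked minus saline. Counts were low for Dlx1 (17 to 400 per IP library) and Dlx2 (19 to 171), but some libraries of a group differed beyond counting error. Dlx1 was at 5.32 CPM in cocaine library 2 (95% Poisson interval 4.81 to 5.87) and 1.88 CPM in library 1 (1.37 to 2.50). Dlx2 was at 3.11 CPM in yoked library 1 (2.66 to 3.61) and 0.626 CPM in library 2 (0.377 to 0.977).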
